A study of Homo sapiens with 8 samples.

Results

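The non-coding genes examined here are known from myeloid cells and comprise HOTAIRM1, NEAT1, MALAT1, GAS5, MIR223HG, MIR22HG, MIR17HG, MIR181A1HG and MIR155HG. They were taken by name from GENCODE release 44 placed on hg19. No measured value chose them, but earlier results of these data were known when the list was made. All 9 were found among the 38690 protein-coding and long non-coding RNA (lncRNA) genes of chromosomes 1 to 22 and X, of which 18592 are lncRNA genes. The data were peak lists from chromatin immunoprecipitation sequencing of HL-60 cells, an established human leukemia line that the labels assign to acute promyelocytic leukemia. ATRA cells received 1 µM all-trans retinoic acid (ATRA), a ligand of the retinoic acid receptors, for 4 days. Control cells received the same volume of ethanol, the solvent of ATRA, and both groups were given fresh medium and fresh agent on day 2. H3K4me3, a mark of active promoters, and H3K27ac, a mark of active promoters and enhancers, were each measured in 2 replicates per condition, which gave 8 libraries. No source used here states that the replicates were separate cultures, so the spread between them may be technical. HL-60 is 1 cell line, and in a bulk population more cells with a mark and more mark per cell cannot be told apart.

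LncRNAs are long transcripts that are not translated. Some, such as NEAT1 and MALAT1, are abundant nuclear RNAs, and others are known mainly because a microRNA or a small nucleolar RNA is cut out of them. A microRNA of about 22 bases pairs with messenger RNAs through its seed, bases 2 to 8, and lowers their output, so microRNAs with the same seed share many targets. Active transcription of either kind of gene starts at a promoter that usually carries H3K4me3 around the transcription start site (TSS), with H3K27ac at the same place when the promoter is active. In myeloid cells HOTAIRM1 is known as a retinoid-induced transcript of the HOXA locus, and miR-223 as a microRNA of granulocytes.

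The 5 host genes hold 11 microRNA hairpins, and 22 mature microRNAs with 18 distinct seeds were placed on GRCh37 by an exact match of their RefSeq sequences. The arm best known as the active strand of each hairpin is shown, because the position of the hairpins under or outside the peaks separates the host genes below. Capitals mark the seed.
miR-223-3p: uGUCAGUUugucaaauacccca
miR-22-3p: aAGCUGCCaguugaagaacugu
miR-17-5p: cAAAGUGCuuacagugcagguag
miR-20a-5p: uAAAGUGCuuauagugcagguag
miR-18a-5p: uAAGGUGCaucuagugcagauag
miR-19a-3p: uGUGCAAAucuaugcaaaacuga
miR-19b-3p: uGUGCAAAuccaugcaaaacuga
miR-92a-3p: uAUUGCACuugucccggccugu
miR-181a-5p: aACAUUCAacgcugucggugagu
miR-181b-5p: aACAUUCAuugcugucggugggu
miR-155-5p: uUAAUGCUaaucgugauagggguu
The seed was shared by miR-17-5p with miR-20a-5p, by miR-19a-3p with miR-19b-3p, and by miR-181a-5p with miR-181b-5p. The seed of miR-18a-5p, AAGGUGC, is close to that of miR-17-5p, AAAGUGC, but is not the same.

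RefSeq promoters, the 250 bases before and 50 bases after a gene start, were given for 6 of the 9 members in a table of the GRCh38.p14 build, and each of these sequences matched hg19 exactly once near its gene. A pair of them is printed, since they hold the most and the fewest CpG dinucleotides of these promoters. The MIR17HG promoter lies at hg19 chr13:91999691-91999990 on the plus strand, holds 42 CpG dinucleotides and was under H3K4me3 and H3K27ac along all 300 bases in every library.
MIR17HG promoter: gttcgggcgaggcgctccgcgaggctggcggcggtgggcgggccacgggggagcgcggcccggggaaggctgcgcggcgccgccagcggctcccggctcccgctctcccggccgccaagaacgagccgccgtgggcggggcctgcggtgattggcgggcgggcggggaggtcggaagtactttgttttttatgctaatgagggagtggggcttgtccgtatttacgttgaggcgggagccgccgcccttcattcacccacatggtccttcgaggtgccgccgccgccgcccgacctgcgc
The MIR181A1HG promoter lies at hg19 chr1:198906509-198906808 on the minus strand and holds 0 CpG dinucleotides. It was also under H3K4me3 along all 300 bases in every library, whereas H3K27ac covered 0 and 300 bases in the ATRA libraries and 123 and 300 bases in the control libraries.
MIR181A1HG promoter: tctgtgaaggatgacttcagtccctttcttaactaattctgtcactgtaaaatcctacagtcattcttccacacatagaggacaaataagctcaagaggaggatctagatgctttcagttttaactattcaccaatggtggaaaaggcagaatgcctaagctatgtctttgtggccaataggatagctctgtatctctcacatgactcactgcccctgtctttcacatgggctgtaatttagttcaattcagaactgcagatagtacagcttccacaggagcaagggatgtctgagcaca
Of the 35116 promoters in the table, 94.2% held fewer CpG dinucleotides than that of MIR17HG. Short motifs were searched on both strands of the promoters of the members. They were AGGTCA, the half-site of nuclear receptors, its direct repeat with 5 bases between, GAGGAA, a core of ETS factors such as PU.1, TTGCNNAA, a core of C/EBP factors, and CACGTG, an E-box. The direct repeat contains the half-site. Neither printed promoter holds any of these letters. Of the other members with an entry, the GAS5 promoter holds 1 AGGTCA, found in 13.8% of all promoters, and the MIR155HG promoter holds 1 TTGCNNAA, found in 10.5%. GAGGAA is in 27.9% of all promoters, CACGTG in 7.26% and the direct repeat in 2 promoters.

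For every gene, the length under peaks was measured in its annotated record plus 5 kb on each side, called its window. A member was called higher in ATRA when both ATRA libraries covered more of the window than both control libraries, and lower in the reverse case. The log2 ratio compared the mean covered length of ATRA with that of control after 1000 bp was added to each. With 2 libraries against 2, no exact two-sided permutation p can fall below 0.33, so no difference was tested and all comparisons describe these libraries. The H3K4me3 libraries held 13241 to 16487 peaks over 47.7 to 63.2 Mb, and the H3K27ac libraries 15457 to 39332 peaks over 28.8 to 86.1 Mb. The fewest H3K27ac peaks were in control replicate 1 and the most in ATRA replicate 2. The total covered length was larger in ATRA by 0.22 on the log2 scale for H3K4me3 and by 0.87 for H3K27ac. The part of this shift in the results was not tested, and log2 ratios that change sign when each library is scaled to its own total are given below. The authors' paper counted peaks found in both replicates and reports fewer of them in ATRA than in control for both marks. That is another measure and the opposite direction to the covered length here, and the difference was not resolved. Of 10 markers of promyelocytes and granulocytes, 7 had H3K4me3 over the TSS in both ATRA libraries (CD33, CEBPA, CEBPE, CSF3R, MPO, PRTN3 and SPI1), and 6, all but PRTN3, in both control libraries. The others of this list, ELANE, AZU1 and LYZ, had no H3K4me3 over the TSS in any library. The defining markers of T cells, B cells, hepatocytes and fibroblasts had none in any library, and of 3 erythroid markers only GATA1 had a peak, in both control libraries.

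H3K4me3 in the window was higher in ATRA at 3 of the 9 members (HOTAIRM1, MIR22HG and MIR181A1HG) and lower at 1 (MIR223HG), with the groups overlapping at NEAT1, MALAT1, GAS5 and MIR17HG and with no peak at MIR155HG. Of all genes, 19.1% were higher and 2.13% lower, and among the 19060 genes with an H3K4me3 peak in the window 38.7% were higher and 4.32% lower, so the count of higher members among the 8 with a peak is near that of other genes. The median log2 ratio of the 8 members with a peak was 0.13, against 0.14 for all genes with a peak. As a share of the total of each library, 0 members were higher and 3 lower (MALAT1, GAS5 and MIR223HG), and of all genes 7.78% were higher and 12.3% lower. Leaving out 1 library leaves fewer libraries that must agree, so the counts could only stay or rise. There were 5 members higher without ATRA replicate 2 and 6 without control replicate 1. Without ATRA replicate 2 or without control replicate 2, 2 members were lower. The share of all genes called with a library left out is not given here.

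H3K27ac in the window was higher in ATRA at 2 members, NEAT1 and MIR22HG, and lower at 0. Of all genes, 21.1% were higher and 2.42% lower, and of the 21572 genes with an H3K27ac peak in the window 37.9% were higher and 4.34% lower. The median log2 ratio was 0.17 over the 8 members with a peak and 0.40 over all genes with one. As a share of the total of each library, 0 members were higher and 4 lower (NEAT1, MALAT1, MIR223HG and MIR17HG), against 9.65% and 13.7% of all genes. Without ATRA replicate 1, 7 members were higher, and without control replicate 2, 6 were. As for H3K4me3, such counts could only stay or rise, and the share of all genes called that way is not given here. They are therefore not read as a result about the members. Leaving out ATRA replicate 2 or control replicate 1 made MIR17HG lower.

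**Figure D1:**
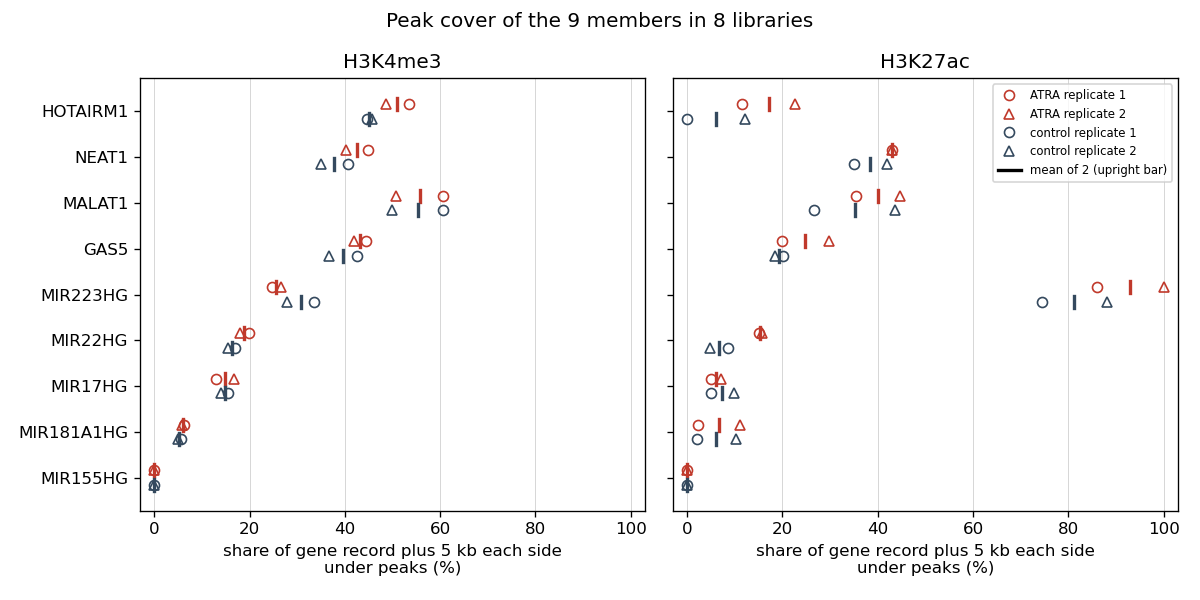
Share of the window under peaks (%, horizontal axis) for each member and mark, with circles for replicate 1, triangles for replicate 2 and an upright bar for the mean of the 2 libraries of a condition. H3K27ac covered 74.5% to 100.0% of the MIR223HG window, more than that of any other member, and MIR155HG sits at 0 for both marks.

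**Figure D2:**
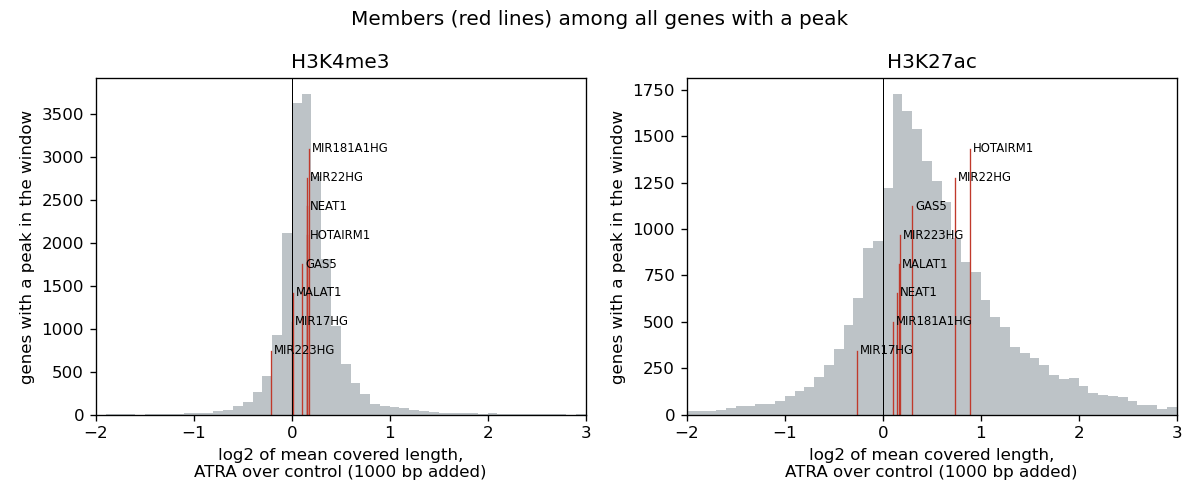
Number of genes with a peak in the window (vertical axis) by the log2 ratio of mean covered length, ATRA over control, with the 8 members that have a peak as red lines at heights chosen for legibility. For H3K4me3 the members lie between -0.21 at MIR223HG and 0.18 at MIR181A1HG, and for H3K27ac between -0.26 at MIR17HG and 0.89 at HOTAIRM1, with all libraries used.

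No member gained or lost either mark at its start site by the rule used here. H3K4me3 lay over the TSS base in all 4 libraries at 7 of the 9 members, a state of 33.8% of all genes, and H3K27ac at 6 members, a state of 13.7% of all genes. A gain of H3K4me3, a peak over the TSS in both ATRA and neither control library, was found at 0 members and 0.248% of all genes, and a loss at 0 members and 0.119%. For H3K27ac 0 members gained and 0 lost the peak, against 2.36% and 0.318% of all genes. The exceptions to a peak in every library were MIR223HG for H3K4me3, HOTAIRM1 and MIR181A1HG for H3K27ac, and MIR155HG for both marks. Leaving out 1 library relaxes this rule too, and the share of all genes is then not given here. Without control replicate 2, HOTAIRM1 would count as a gain of H3K27ac and MIR223HG as a loss of H3K4me3. MIR181A1HG would count as a loss of H3K27ac without ATRA replicate 2.

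HOTAIRM1 (ENSG00000233429, hg19 chr7:27135266-27139884, plus strand) lies in the HOXA cluster of developmental transcription factors. H3K4me3 covered 7806 and 7112 bp of its window in the ATRA libraries and 6513 and 6667 bp in the control libraries. Both ATRA libraries lay above both control libraries, with a log2 ratio of 0.16 that fell to 0.10 without ATRA replicate 1 and was -0.06 as a share of the library total. The H3K4me3 peak over the TSS ended 4044 and 3831 bp downstream in ATRA and 3755 and 3115 bp downstream in control, so it covered most of the gene record in every library. H3K27ac covered 1678 and 3321 bp in ATRA, and 0 and 1788 bp in control. The groups overlapped because control replicate 2 lay above ATRA replicate 1, and the log2 ratio of 0.89 was above that of 75.0% of the genes with a peak. Control replicate 1, the library with the fewest peaks of this mark, had its nearest H3K27ac peak 565903 bp downstream of the TSS. Without it the log2 ratio was 0.33, against 1.81 without control replicate 2, 0.50 without ATRA replicate 2 and 1.19 without ATRA replicate 1. As a share of the library total it was 0.55, the same direction. It was 1.39 with 100 bp added to each mean and 0.35 with 5000 bp added. With peaks of a −log10 q of at least 5 it was 0.00, as no H3K27ac peak in this window reached that value. No start of HOXA2 inside the window lay under a peak of either mark in any library.

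The patterns most like that of HOTAIRM1, by Euclidean distance of log2 covered length over the 8 libraries among 18582 lncRNA genes at least 100 kb away, were those of the unnamed genes ENSG00000272969 on chromosome 4 (distance 0.50), ENSG00000287035 on chromosome 19 (0.50) and ENSG00000286897 on chromosome 15 (0.52). All 3 had 0 bp of H3K27ac in control replicate 1 and 1097 to 3715 bp in the ATRA libraries. This is a likeness of peak lengths in libraries that share their depth, and nothing more was measured.

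NEAT1 (ENSG00000245532, hg19 chr11:65190245-65213011, plus strand) is the RNA scaffold of nuclear paraspeckles. H3K4me3 covered 14676 and 13179 bp in ATRA and 13290 and 11443 bp in control, so the groups overlapped. The log2 ratio was 0.16, with 0.09 without ATRA replicate 1, 0.26 without control replicate 1, 0.06 without control replicate 2 and -0.05 as a share of the library total. The peak spread over the TSS from 3479 to 6105 bp upstream to at least 7963 bp downstream, and also covered the start of the lncRNA gene ENSG00000290057, 1350 bp away, in 4 libraries. H3K27ac covered 14066 and 14063 bp in ATRA and 11459 and 13729 bp in control. Both ATRA libraries lay above both control libraries, but control replicate 2 was close to them, and the log2 ratio of 0.15 became 0.03 without control replicate 1, 0.27 without control replicate 2 and -0.73 as a share of the library total. Both marks thus covered the first part of the gene and its upstream side over a similar length.

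MALAT1 (ENSG00000251562, hg19 chr11:65265111-65275544, plus strand) encodes an abundant RNA of nuclear speckles and is the next member along the chromosome from NEAT1. H3K4me3 covered 12381 and 10390 bp in ATRA and 12411 and 10189 bp in control. The values of the same replicate number were nearly equal between conditions, and the log2 ratio was 0.01, with -0.11 to 0.15 when 1 library was left out and -0.20 as a share of the library total. The peak over the TSS reached 8894 to 11134 bp downstream, nearly the whole gene record or past its end. H3K27ac covered 7243 and 9116 bp in ATRA and 5462 and 8900 bp in control, with overlap and a log2 ratio of 0.17. This was 0.31 without ATRA replicate 1, 0.01 without ATRA replicate 2, -0.11 without control replicate 1, 0.51 without control replicate 2 and -0.63 as a share of the library total. The H3K27ac peak over the TSS ended after 1672 to 2948 bp. Of the other starts in the window, the lncRNA gene ENSG00000270117, 977 bp away, lay under both marks in 4 libraries, and ENSG00000290061, 4582 bp away, under H3K27ac in 4 and H3K4me3 in 1. The antisense gene TALAM1 had H3K4me3 over its start in 2 libraries and H3K27ac in 0.

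GAS5 (ENSG00000234741, hg19 chr1:173827697-173838020, minus strand) is a host of small nucleolar RNAs. Its TSS lies 391 bp from that of ZBTB37, a zinc finger gene on the other strand. H3K4me3 covered 9021 and 8527 bp in ATRA and 8653 and 7462 bp in control, which overlapped. The log2 ratio was 0.11, with 0.02 without control replicate 2, 0.21 without control replicate 1, 0.07 without ATRA replicate 1 and -0.09 as a share of the library total. H3K27ac covered 4019 and 6051 bp in ATRA and 4086 and 3744 bp in control. ATRA replicate 2 stood above the other 3 libraries, which lay close together. The log2 ratio was 0.30, but 0.03 without ATRA replicate 2, 0.52 without ATRA replicate 1, -0.07 within the gene record alone and -0.56 as a share of the library total. The upstream edge of the H3K27ac peak over the TSS lay 2630 and 2902 bp upstream in ATRA and 981 and 9 bp upstream in control, although control replicate 2 had a further peak from 2504 to 1500 bp upstream. The RefSeq promoter of GAS5, whose start site is 1056 bp upstream of the TSS used here and inside ZBTB37, was therefore under H3K27ac along 300 bases in both ATRA libraries and along 0 in both control libraries, a position described after its values were seen. ZBTB37 had H3K4me3 over a start in 4 libraries and H3K27ac in 3, and GAS5-AS1 had H3K4me3 over its start in 2 libraries.

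**Figure D3:**
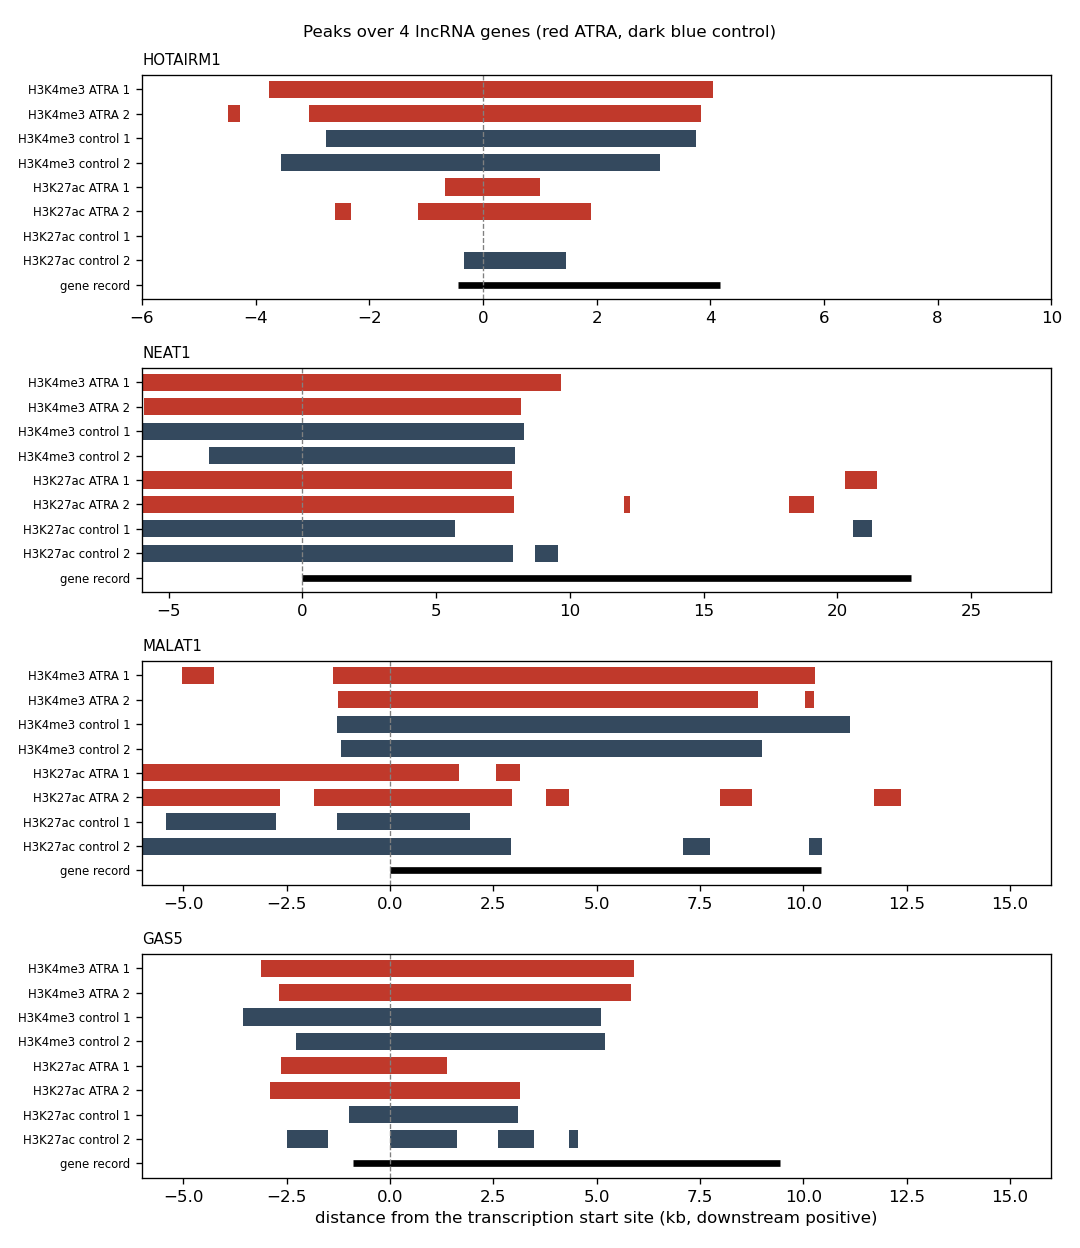
Peaks of each library over 4 lncRNA genes, red for ATRA and dark blue for control, by distance from the TSS (kb, horizontal axis, downstream positive), with the gene record as a black bar and peaks cut at the axis ends. HOTAIRM1 has an H3K27ac peak at its TSS in 3 of 4 libraries, and NEAT1 carries both marks from over 3 kb upstream to over 5 kb downstream in every library.

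MIR223HG (ENSG00000274536, hg19 chrX:65235256-65240268, plus strand) was the 1 member called lower for H3K4me3, and it had the largest share of its window under H3K27ac. H3K4me3 covered 3709 and 3992 bp in ATRA and 5038 and 4175 bp in control. Both ATRA libraries lay below both control libraries, with a log2 ratio of -0.21, and only 5.8% of the genes with a peak had a lower one. It was -0.09 without control replicate 1, -0.32 without control replicate 2 and -0.39 as a share of the library total, so the direction was the same in each. The H3K4me3 peak began 5, 64 and 113 bp downstream of the TSS in ATRA replicates 1 and 2 and control replicate 2, and 139 bp upstream in control replicate 1. It ended 3713 and 4055 bp downstream in ATRA and 4898 and 4287 bp downstream in control, so its shorter length in ATRA was at the downstream end. H3K27ac ran the other way in length, with 12907 and 15013 bp of the 15013 bp window in ATRA and 11184 and 13218 bp in control. The groups overlapped, as control replicate 2 lay above ATRA replicate 1, and the log2 ratio was 0.18. It was 0.08 without ATRA replicate 2, 0.07 without control replicate 1, 0.28 without ATRA replicate 1 and 0.30 without control replicate 2, and -0.71 as a share of the library total. The peak itself was 30708 and 43356 bp long in ATRA and 28679 and 36477 bp in control, and reached from 22495 to 32297 bp upstream of the TSS to between 6183 and 11058 bp downstream. Both arms of miR-223 lie in exon 3, the last, with miR-223-3p at hg19 chrX:65238779-65238800, 3523 bp downstream of the TSS, and were under both marks in all 8 libraries.

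MIR22HG (ENSG00000186594, hg19 chr17:1614741-1620468, minus strand) was the only member called higher for both marks. H3K4me3 covered 3136 and 2821 bp in ATRA and 2677 and 2432 bp in control. The log2 ratio was 0.16, was 0.10 without ATRA replicate 1, and turned to -0.01 as a share of the library total and to -1.15 with peaks of a −log10 q of at least 5, as only the peak of control replicate 2 passes that filter. H3K27ac covered 2367 and 2465 bp in ATRA and 1349 and 749 bp in control. The ATRA libraries were close to each other and well above the control libraries, with a log2 ratio of 0.74 that lay above that of 69.1% of genes with a peak, and of 0.54 without control replicate 2 and 0.07 as a share of the library total. The difference lay upstream of the gene, where the H3K27ac peak reached 1853 and 1824 bp in ATRA and 819 and 67 bp in control, while its downstream edges lay at 513 and 640 bp in ATRA and 529 and 681 bp in control. Within the gene record alone the log2 ratio was accordingly -0.03. No H3K27ac peak at this TSS had a −log10 q of 5. The RefSeq promoter of MIR22HG has its start site 964 bp downstream of the TSS used here. In every library it was under H3K4me3 along all 300 bases and under H3K27ac along 0. Both arms of miR-22 lie in exon 4, the last, 3201 and 3239 bp downstream of the TSS, and were under no peak of either mark in any library, as the H3K4me3 peak ended 1689 to 2254 bp downstream. WDR81 is on the other strand, and the TSS used for it, 7530 bp upstream of that of MIR22HG, is outside the window. Other annotated starts of WDR81 lie inside it, and H3K4me3 covered at least 1 of them in 4 libraries and H3K27ac in 2. The peak there was that over the MIR22HG TSS, the only peak of each mark in the window, so the 2 genes share it. TLCD2, 6797 bp on the other side, had neither mark over its start.

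MIR17HG (ENSG00000215417, hg19 chr13:91999940-92049846, plus strand) hosts the cluster of miR-17, miR-18a, miR-19a, miR-20a, miR-19b-1 and miR-92a-1, known as an oncogenic cluster that limits differentiation. H3K4me3 covered 7799 and 10004 bp in ATRA and 9312 and 8450 bp in control. The control values lay between the ATRA values, and the log2 ratio was 0.00, with -0.17 to 0.16 when 1 library was left out and -0.20 as a share of the library total. H3K27ac covered 2937 and 4191 bp in ATRA and 2959 and 5945 bp in control, with overlap and a log2 ratio of -0.26. It was 0.21 without control replicate 2, the opposite sign, and -0.07 without ATRA replicate 1, -0.47 without ATRA replicate 2 and -0.61 without control replicate 1, and -0.95 as a share of the library total. The mature microRNAs span 765 bp at hg19 chr13:92002872-92003636 in intron 3 of 4, beginning 2921 bp downstream of the TSS. All of them were under H3K4me3 in the 4 libraries, since the peak reached 5066 to 6568 bp downstream. H3K27ac reached 2088 and 2577 bp downstream in ATRA and 2065 and 4807 bp in control, so that the cluster was under it in control replicate 2 alone. GPC5, the next protein-coding gene, had no mark over its start, and the lncRNA gene ENSG00000292285 had H3K4me3 over a start in 3 libraries.

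MIR181A1HG (ENSG00000229989, hg19 chr1:198746990-198906600, minus strand) is by far the longest member, and peaks took up only 5.0% to 6.3% of its window for H3K4me3. The mark covered 10601 and 10037 bp in ATRA and 9514 and 8499 bp in control. Both ATRA libraries lay above both control libraries, with a log2 ratio of 0.18, of 0.11 without control replicate 2 and of -0.03 as a share of the library total. The difference lay upstream of the TSS, where the peak reached 2339 and 1632 bp in ATRA and 1143 and 748 bp in control, and within the gene record alone the log2 ratio was 0.04. H3K27ac covered 3792 and 18730 bp in ATRA and 3636 and 17254 bp in control. The log2 ratio of 0.10 was set by single libraries, with -1.26 without ATRA replicate 2, -0.57 without control replicate 1, 0.79 without ATRA replicate 1 and 1.40 without control replicate 2, and was -0.63 as a share of the library total. The values separated by replicate number and not by condition, with peaks of 10392 and 8591 bp at the start of the gene in the replicate 2 libraries and of 2353 and 2863 bp in the replicate 1 libraries. In ATRA replicate 1 the H3K27ac peak began 86 bp downstream of the TSS. The hairpins of miR-181a and miR-181b lie in intron 2 of 2, with miR-181a-5p 78291 bp downstream of the TSS at hg19 chr1:198828237-198828259, and were under no peak of either mark in any library.

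MIR155HG (ENSG00000234883, hg19 chr21:26934122-26947480, plus strand) hosts miR-155, a microRNA of activated lymphocytes and macrophages. Its window held 0 bp of both marks in all 8 libraries. The nearest H3K4me3 peak began 41898 to 42475 bp downstream of the TSS and the nearest H3K27ac peak 44871 to 45341 bp downstream, and in every library a start of MRPL39, a gene of the mitochondrial ribosome, lay under it. A peak list gives no depth, so a mark below the calling threshold would not be seen at this gene.

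**Figure D4:**
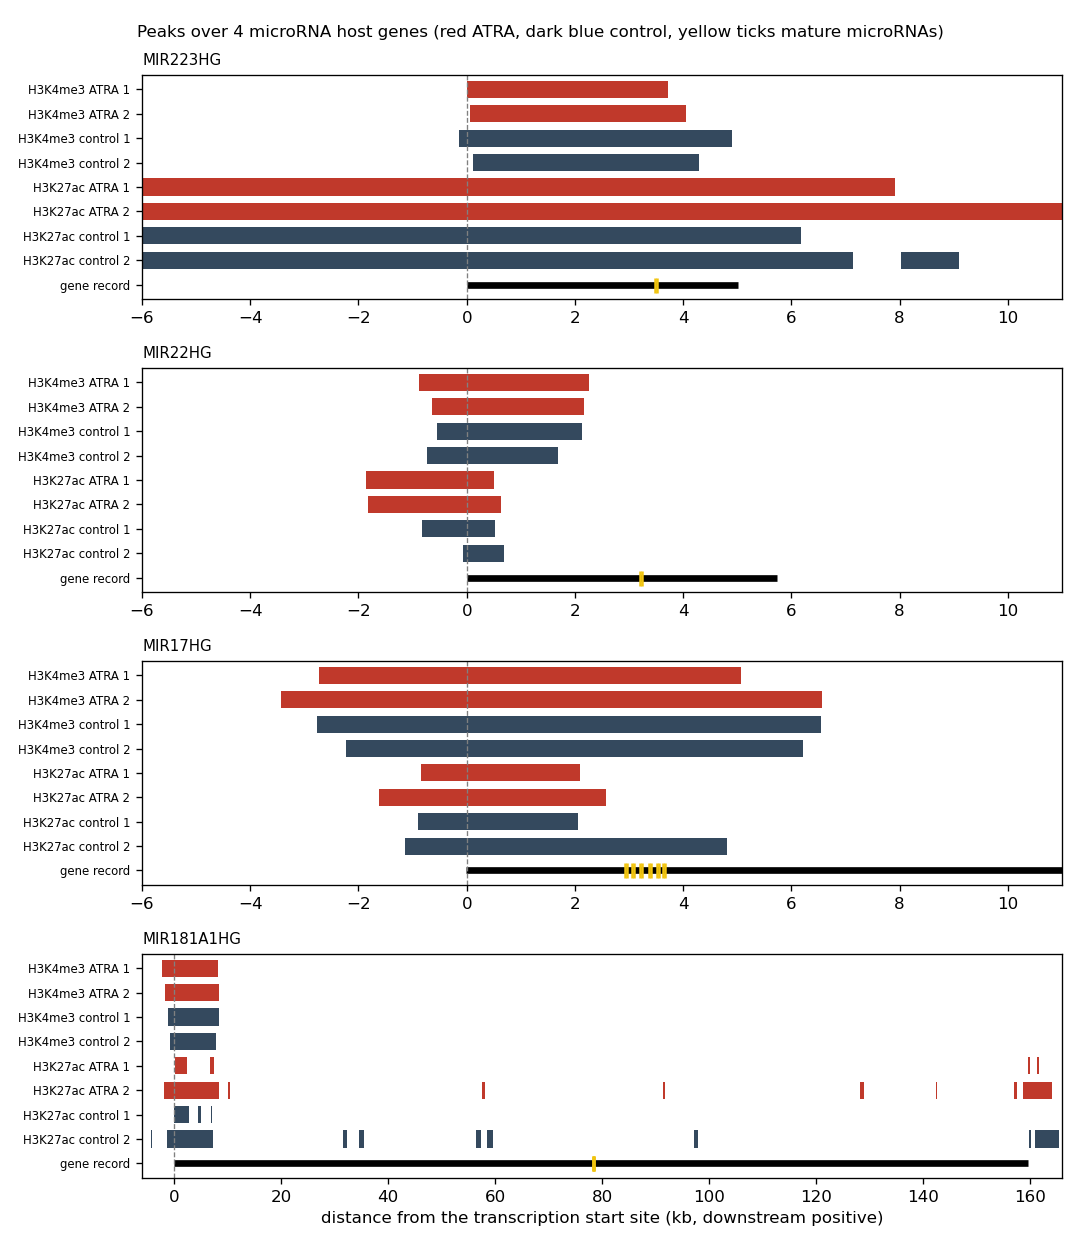
Peaks of each library over 4 microRNA host genes, drawn as for the lncRNA genes, with yellow ticks at the mature microRNAs on the black gene record (peaks and the MIR17HG record are cut at the axis ends, and the MIR181A1HG axis is longer). The miR-223 and miR-17 to miR-92a-1 ticks lie below H3K4me3 peaks of all 4 libraries, whereas those of miR-22 and miR-181 lie outside them.

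The host genes thus differed in whether the marks reached the mature microRNAs, which depends on the position of the hairpins as well as on the peaks. At MIR181A1HG the H3K4me3 peak over the TSS ended 7750 to 8404 bp downstream, farther than at MIR17HG or MIR223HG, but its hairpins lie beyond it. The mature microRNAs were under H3K4me3 in all 4 libraries at MIR223HG and MIR17HG and in 0 libraries at MIR22HG, MIR181A1HG and MIR155HG, and under H3K27ac in all 4 at MIR223HG only. None of these counts differed between conditions except the 1 control library with H3K27ac over the MIR17HG cluster.

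The overlap of the marks was read from the bases under peaks in both replicates of a condition. Of the H3K4me3 bases in the window, all were also under H3K27ac at MIR223HG in both conditions (100.0%). At NEAT1 the share was 97.6% in ATRA and 80.4% in control, at GAS5 47.1% and 28.9%, and at MIR22HG 41.1% and 26.7%. HOTAIRM1 had 24.3% in ATRA and 0% in control, which follows from control replicate 1 alone. The share was nearly the same in ATRA and control at MALAT1 (31.9% and 30.6%) and MIR17HG (37.7% and 35.0%), and lower in ATRA at MIR181A1HG (30.3% and 42.8%). Each share rests on 1 value per condition and has no error.

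Other genes of the same kinds were counted by the same rule. Of 76 further microRNA host genes with names of the form MIR-HG, 39 had an H3K4me3 peak in the window, 13 were higher in ATRA and 4 lower, beside 38.7% and 4.32% of all genes with a peak. For H3K27ac 42 had a peak, 15 were higher and 2 lower, beside 37.9% and 4.34%, and the median log2 ratio of those with a peak was 0.38 against 0.40 for all genes with one. The counts higher are near those of all genes with a peak and show nothing particular to this list. For H3K4me3 the lower genes were 5.26% of the 76, against 2.13% of all genes with or without a peak. For H3K27ac these shares were 2.63% and 2.42%. Neither difference was tested. Among the 15 genes of this list called higher for H3K27ac, MIR4713HG on chromosome 15 had the largest log2 ratio. It had 9559 and 14789 bp in ATRA and 0 bp in both control libraries. MIR646HG on chromosome 20 followed with 7282 and 16650 bp in ATRA and 0 and 478 bp in control. In both genes the TSS had no H3K27ac peak in any library, so the covered bases lay elsewhere in the window. MIR3142HG on chromosome 5, the host gene of miR-146a, was lower for H3K4me3, with 2753 and 1994 bp in ATRA and 5710 and 3479 bp in control.

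Of 28 small nucleolar RNA host genes (SNHG), the kind to which GAS5 belongs, 25 had an H3K4me3 peak, 6 were higher and 3 lower, beside 38.7% and 4.32% of all genes with a peak. For H3K27ac 25 had a peak, 7 were higher and 1 lower, beside 37.9% and 4.34%, with a median log2 ratio of 0.16 over those with a peak against 0.40 over all genes with one. None of these differences from all genes was tested. SNHG21 had 1823 and 2985 bp of H3K27ac in ATRA and 352 and 0 bp in control, and was the 1 gene of this list that gained a peak over the TSS. SNHG16 had 15822 and 14271 bp in ATRA and 4352 and 10288 bp in control. SNHG15 was the 1 lower gene, with 9212 and 8571 bp in ATRA and 11318 and 10261 bp in control, and it was also lower for H3K4me3. Among the 3 genes of the list called lower for H3K4me3, SNHG26 had the lowest log2 ratio, -0.42. It had 5288 and 4820 bp in ATRA and 7729 and 6462 bp in control.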

How the data were processed

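ChIP-seq peak lists for H3K4me3 and H3K27ac in HL-60 cells were used, with 2 libraries per mark and condition. The authors trimmed adapters (the submitters' processing notes name cutadapt), mapped the reads with Bowtie (hg19) and ran MACS2 on every library by itself in its broad mode. Versions, and the use of input libraries in the call, are not given in the sources used here. Each deposited peak has a start, an end and 3 scores. The scores for enrichment and p contain numbers outside any possible range and were left out. The deposited −log10 q served only as a filter, of at least 5 in an alternative. It stands beside the scores that were left out and could not be checked. At the members it went as low as 0.20, in a MIR181A1HG peak of H3K27ac in ATRA replicate 2, so results with this filter rest on an unchecked score. Read numbers are not in these files, so depth is unknown, no counting interval could be given, and precision rests on 2 libraries per condition.

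Covered length in bp was summed per gene window (record plus 5 kb each side). The TSS was the first base of the transcript tagged canonical in GENCODE release 44 on GRCh37. A call needed both libraries of a condition beyond both of the other. Log2 ratios used condition means with a pseudocount of 1000 bp. All genes of chromosomes 1 to 22 and X gave the background. The length code recovered the lengths set in simulated peaks. Sequences came from RefSeq tables of GRCh38.p14 and were matched exactly to GRCh37. Alternatives were other flanks (0 and 20 kb), the q filter, equal numbers of the longest peaks, scaling to the library total, peak numbers, pseudocounts of 100 and 5000 bp, other TSS definitions, the replicate number as a block and leaving out each library.

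The members, gene lists, motifs and tests were chosen with earlier results of these data known. All members were described. Other genes were named by rule: starts under a peak near a member (the nearest 3, of which 1 is not reported here), among MIR-HG and SNHG genes the largest and smallest log2 ratios of non-overlapping genes (up to 3 each, of which some are printed), and the 3 lncRNA genes most like HOTAIRM1. MRPL39 was named after its position was seen. Python 3.11.15, numpy 2.4.6, pandas 2.3.3 and matplotlib 3.10.9 were used.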

Additional observations from a re-analysis of the deposited data

How the results depend on the processing

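The members' counts and medians depended on how the libraries were scaled. As a share of the total covered length, the H3K4me3 count higher in ATRA went from 3 to 0 and the count lower from 1 to 3, with a median log2 ratio of -0.06 against 0.11 over the 9 members. For H3K27ac the count higher went from 2 to 0 and the count lower from 0 to 4, with a median of -0.63 against 0.17. Under that scaling the log2 ratio was -0.06 at HOTAIRM1, -0.01 at MIR22HG and -0.03 at MIR181A1HG for H3K4me3, and -0.73 at NEAT1 for H3K27ac. With a −log10 q of at least 5, the median was 0.00 for both marks, the H3K27ac count higher was 0, as most peaks of this mark at the members lie below it, and MIR22HG had -1.15 for H3K4me3. Without a flank the H3K27ac count higher was 1 and its median 0.00, with -0.03 at MIR22HG. By the number of peaks, 1 member was higher and 0 lower for H3K4me3, and 0 were higher for H3K27ac. With the start of the gene record as TSS, 1 member (HOTAIRM1) gained H3K27ac. Leaving out 1 library at a time gave H3K4me3 counts of 3 to 6 higher and 1 to 2 lower with medians of 0.02 to 0.15, H3K27ac counts of 2 to 7 higher and 0 to 1 lower with medians of 0.03 to 0.31, and 0 to 1 TSS gained or lost for each mark. Where that left a condition with 1 library, the call rests on that library alone. With fewer libraries that must agree, the counts higher, lower, gained or lost could only stay or rise. Of 192 log2 ratios under alternatives at the 8 members with a peak, 125 stayed within the spread between replicates. Of the 180 whose value with all libraries was not 0.00, 23 had the opposite sign, among them 11 of 15 under scaling to the library total, and 8 were 0.00.

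In the peak names, the ATRA and control libraries of 1 mark and replicate number carry a common tag, which differs between the marks, but the labels do not say what the number marks, and 2 pairs per mark cannot show it. Deviations of same-numbered libraries from their condition means correlated at 0.223 for H3K4me3 and 0.556 for H3K27ac over 75829 bins of 40 kb. With the replicate block (ATRA against control within each number), 5 members were higher and 1 lower for H3K4me3 (25.5% and 3.83% of all genes), and 6 were higher and 1 lower for H3K27ac (30.4% and 4.65%). The members higher under the block beside those already called were NEAT1 and GAS5 for H3K4me3 and HOTAIRM1, MALAT1, MIR223HG and MIR181A1HG for H3K27ac, and MIR17HG was lower for H3K27ac. No TSS call differed under the block.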
